A study of Mus musculus with 47 samples.

Results

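Stitched clusters of histone H3 lysine 27 acetylation (H3K27ac) were examined in mouse liver. A cluster was a run of autosomal H3K27ac peaks in which neighbours lay no farther apart than a fixed stitching distance, which spanned 25 kb or more and which held at least 5 peaks. The rule was applied to each of 4 peak lists separately and gave 3988 clusters out of 82811 stitched groups, single peaks included: 316 for control male, 1215 for control female, 1372 for E1/E2-KO male and 1085 for E1/E2-KO female liver. Clusters of different lists that overlapped were joined to 1940 loci, which cover 80.5 Mb or 3.26% of the autosomes. The peak positions that chose the clusters are described below without a test, whereas the H3K4me1 and H3K27me3 lists played no part in the choice.

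The study asked how loss of EZH1 and EZH2, the enzymes that place H3K27me3, changes the chromatin of male and female liver. Controls were floxed (Ezh2 f/f) mice, and E1/E2-KO mice lacked Ezh1 in all cells (Ezh1-/-) and Ezh2 in hepatocytes, where an albumin promoter drives Cre (EZH2f/f, AC+). All mice were 7 weeks old. Reads of 4 livers per group were pooled before peak calling for each mark, except 3 livers listed for H3K4me1 in E1/E2-KO female, so each group has 1 list per mark and no replicate. Liver cells that do not express Cre, such as endothelial, Kupffer and stellate cells, keep Ezh2 in E1/E2-KO liver. In whole liver a change in the number of cells of a type cannot be told apart from a change within each cell. The lists hold positions only, with no score or read count, so the depth behind each list is unknown and group differences were not testable.

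H3K27ac marks active promoters and enhancers. Dense runs of such elements tend to lie around genes that a cell type transcribes strongly or that define it, and in hepatocytes these include genes of plasma proteins, lipid transport and the liver transcription factors. H3K4me1 marks enhancers whether active or primed, and H3K27me3 is the Polycomb mark of repressed chromatin, which cannot sit on the same lysine as acetylation. The rule used here joins peaks by distance alone and ranks no signal, so the clusters are not super-enhancer calls.

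Parts of 4 loci that carry the main patterns are shown as 300 bp outside annotated exons, plus strand, 5′ to 3′, mm9 (NCBIM37). Each is centred on 1 peak or, where several lists are concerned, on the stretch that their peaks share. Dgat2 stands for a locus with a cluster in all lists, and its window at chr7:106255763-106256062 lies in an intron of Uvrag, 33.7 kb from the Uvrag start, in a peak present in all 4 lists. Pck1 stands for the loci with a cluster in both E1/E2-KO lists and in no control list. Its window at chr2:172964313-172964612 lies between protein-coding genes, 14.1 kb from the Pck1 start. That window is centred on the stretch shared by peaks of both E1/E2-KO lists, without a control peak. The Hoxa window at chr6:52202756-52203055 lies between protein-coding genes, 6.69 kb from the Hoxa11 start. The Hoxc window at chr15:102822644-102822943 lies in an intron of Hoxc8, 1.74 kb from its start. Both Hox windows are centred on peaks of E1/E2-KO male without a control peak, and the Hoxa window was also under an E1/E2-KO female peak. The Pck1 window reaches past the shared stretch, which is 275 bp wide, and the Hoxc window past its peak of 259 bp. Capitals mark a match on either strand to 1 of 5 searched motifs: TNTTTAC (forkhead factors such as FOXA), TTGCNNAA (C/EBP), CAAAGNNCA (HNF4A), TTCNNNGAA (STAT) and TGANTCA (AP-1).
Dgat2: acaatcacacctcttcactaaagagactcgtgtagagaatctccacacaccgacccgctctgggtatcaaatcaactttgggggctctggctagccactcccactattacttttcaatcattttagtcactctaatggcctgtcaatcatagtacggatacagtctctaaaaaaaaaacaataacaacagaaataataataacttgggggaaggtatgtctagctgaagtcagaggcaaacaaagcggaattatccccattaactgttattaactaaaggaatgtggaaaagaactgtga
Pck1: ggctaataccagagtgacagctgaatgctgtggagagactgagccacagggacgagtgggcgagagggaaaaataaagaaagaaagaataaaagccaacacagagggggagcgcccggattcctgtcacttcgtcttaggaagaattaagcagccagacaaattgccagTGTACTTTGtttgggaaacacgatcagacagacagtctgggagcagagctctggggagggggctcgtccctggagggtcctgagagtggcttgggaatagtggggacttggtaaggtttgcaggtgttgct
Hoxa: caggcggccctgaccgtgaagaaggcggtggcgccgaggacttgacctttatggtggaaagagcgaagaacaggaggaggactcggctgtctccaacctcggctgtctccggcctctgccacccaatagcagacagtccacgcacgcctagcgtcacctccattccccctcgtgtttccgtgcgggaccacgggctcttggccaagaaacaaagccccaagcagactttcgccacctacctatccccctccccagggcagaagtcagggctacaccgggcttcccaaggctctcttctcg
Hoxc: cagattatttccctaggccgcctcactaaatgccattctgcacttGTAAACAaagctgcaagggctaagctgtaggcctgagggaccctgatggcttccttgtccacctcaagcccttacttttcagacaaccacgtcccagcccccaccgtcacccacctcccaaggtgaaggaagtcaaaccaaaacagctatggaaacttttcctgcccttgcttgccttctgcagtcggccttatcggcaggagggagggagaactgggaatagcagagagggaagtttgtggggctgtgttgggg

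Of these windows, the Pck1 window held 1 HNF4A match and the Hoxc window 1 forkhead match, while no match to the 5 motifs was found in the Dgat2 and Hoxa windows. Over the H3K27ac peaks of the 4 lists, merged to 71962, the central 300 bp held the forkhead letters in 13.5%, the C/EBP letters in 11.3%, the HNF4A letters in 8.59%, the STAT letters in 8.72% and the AP-1 letters in 8.37%. In the 18607 merged peaks that touch a cluster locus the shares were 12.9%, 11.2%, 8.34%, 8.97% and 8.52%, against 13.7%, 11.3%, 8.68%, 8.63% and 8.32% in the 53355 peaks outside. Taken over all loci, peaks in clusters thus carried these motifs about as often as other peaks. The largest of these 5 gaps was for the forkhead letters. In the 3030 merged peaks of loci with a cluster in all 4 lists the shares were lower than outside, at 11.6%, 10.7%, 7.59%, 7.59% and 7.72%.

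The 4 lists differed in how much of the acetylation lay in clusters. In control male liver 7.37% of 28862 autosomal peaks lay in clusters, against 21.3% of 48858 for control female, 21.7% of 55055 for E1/E2-KO male and 18.4% of 50426 for E1/E2-KO female liver. The control male list was both the shortest and the one with the fewest clusters. When each list was reduced to its 28862 widest peaks, the cluster numbers became 316, 417, 372 and 322 in the same order. The part of list length in the cluster numbers was not tested further.

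**Figure D1:**
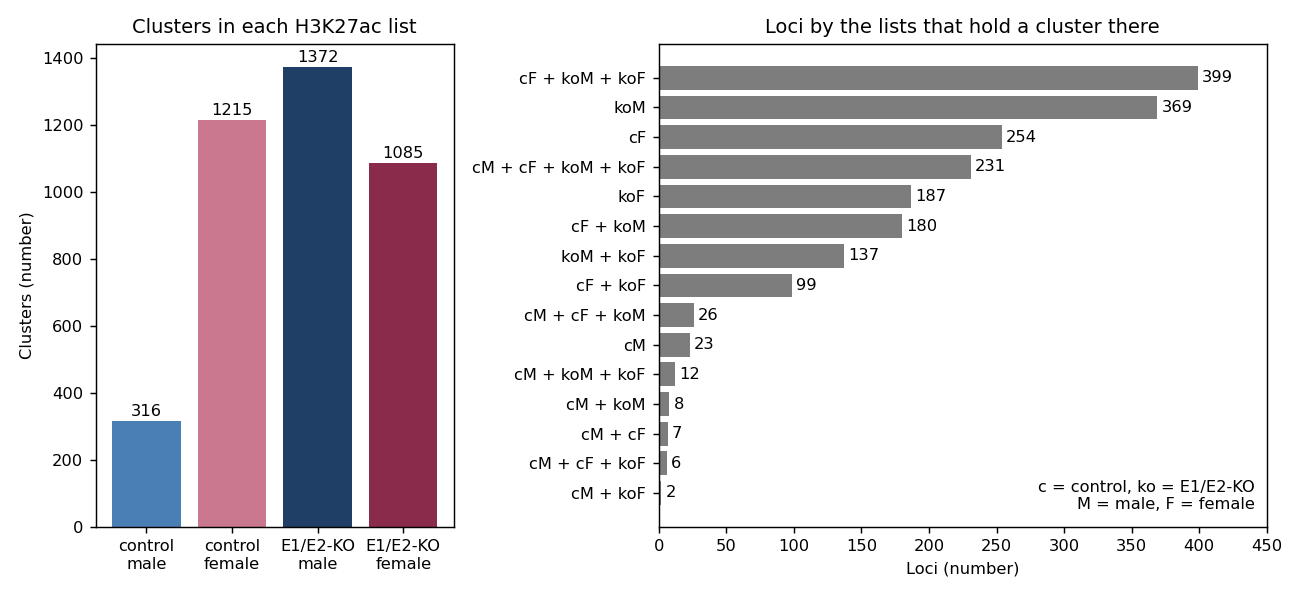
Left, number of clusters in each H3K27ac list (bars). Right, number of loci for each combination of lists that hold a cluster there, where c is control, ko is E1/E2-KO, M is male and F is female. The control male list held 316 clusters against 1085 to 1372 in the others, and loci with clusters in all lists but control male were the most frequent kind (399).

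A typical cluster was a chain of narrow peaks over mostly unmarked sequence. The median span was 32.7 kb for control male, 34.6 kb for control female, 35.0 kb for E1/E2-KO male and 34.5 kb for E1/E2-KO female liver, and the widest clusters spanned 97.8, 132, 126 and 125 kb. The median cluster held 6 peaks for control male and 8 in each other list, up to 33 for control female. Peaks covered 10.6% of the cluster bases for control male, 13.8% for control female, 12.8% for E1/E2-KO male and 11.5% for E1/E2-KO female liver, or 12.6% over all clusters. Between peaks of a cluster the median distance was 5.90 kb in control male and 4.02 to 4.17 kb in the other lists. Peaks in clusters were about as wide as others, with medians of 461.5, 490, 458 and 413 bp inside and 481, 481, 442 and 401 bp outside. Peaks within 2.5 kb of an annotated transcription start made up 34.2% to 46.1% of the peaks in clusters and 37.5% to 51.3% of those outside, with the lower share inside in each list.

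The span threshold cut through a continuous range. In control male liver the narrowest cluster spanned 25048 bp with 6 peaks, and the widest group with enough peaks that stayed outside spanned 24982 bp with 6 peaks. The corresponding spans were 25003 and 24999 bp for control female, 25011 and 24995 bp for E1/E2-KO male and 25017 and 24998 bp for E1/E2-KO female liver. Between 25 and 30 kb lay 120, 334, 388 and 321 clusters, and 135, 388, 486 and 435 groups of at least 5 peaks spanned 20 to 25 kb. Many clusters were therefore close to the limit.

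Most clusters of the control male list recurred in the other lists. Of its 316 clusters 271 (85.8%) overlapped a control female cluster, 277 (87.7%) an E1/E2-KO male cluster and 249 (78.8%) an E1/E2-KO female cluster, and 229 (72.5%, Wilson 95% interval 67.3% to 77.1%) lay in loci with clusters in all lists. This and every later interval covers counting error alone, as if adjacent features were independent. In the longer lists 16.8% to 21.1% of the clusters lay in such loci, a share that the 316 control male clusters limit. Clusters without a counterpart in any other list made up 7.28% of the control male, 20.9% of the control female, 26.9% of the E1/E2-KO male and 17.2% of the E1/E2-KO female clusters.

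Of the 1940 loci, 231 (11.9%) held a cluster in all 4 lists and 399 in all but control male. Clusters in both E1/E2-KO lists and in no control list were found at 137 loci (7.06%), and in both control lists and no E1/E2-KO list at 7 loci (0.361%). Counting loci with a cluster in at least 1 list of a genotype and none of the other, 693 loci were of E1/E2-KO lists and 284 of control lists, of which 369 were of E1/E2-KO male alone and 254 of control female alone. The excess of E1/E2-KO-only over control-only loci was not seen with the 28862 widest peaks of each list, which gave 23 E1/E2-KO-only and 25 control-only loci. Without the control male list, 630 loci held clusters in all of the other 3 lists and 149 in both E1/E2-KO lists but not in control female. Control female clusters without an E1/E2-KO cluster were at 254 loci of that list alone and 7 shared with control male.

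The 231 common loci had a median span of 47.9 kb against 36.1 kb over all loci, which the rule favours, since each joins overlapping clusters of all 4 lists. They were richer in genes per length and held 600 protein-coding starts, or 47.4 per Mb, where all loci held 33.2 and the autosomes 8.66 per Mb. Only 34 of them (14.7%) held no start, against 33.5% of all loci. H3K27ac covered 8.19% of their bases for control male, 14.1% for control female, 13.5% for E1/E2-KO male and 11.4% for E1/E2-KO female liver.

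The widest common locus, chr7:106246190-106379100, spans 133 kb with the starts of Dgat2, which makes triglycerides, and Uvrag, an autophagy and endosome factor. It held 17 peaks for control male, 33 for control female, 33 for E1/E2-KO male and 30 for E1/E2-KO female liver. All 4 lists thus marked it densely, control male with the fewest peaks. The second, chr10:110942379-111074799, surrounds Phlda1 and held 13, 19, 25 and 18 peaks in the same order of lists. The third, chr15:82168490-82294749, holds Cyp2d9, Cyp2d10, Cyp2d11 and Cyp2d22, cytochrome P450 genes of drug and steroid metabolism, with 15, 19, 25 and 19 peaks. Copies of the Cyp2d genes are near-identical, so the placement of peaks among them is uncertain.

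In each of the 10 widest common loci the control male list had fewer peaks than any other list, by least at Gstp1, with 24 peaks against 25, 28 and 26. Gstp1 and Gstp2, glutathione transferases at chr19:3984758-4100476, are also close copies, and Nudt8 and BC021614 start in the same locus. The Pex26 and Tuba8 locus (chr6:121037038-121161857) had 13, 21, 19 and 19 peaks, and the Ppp2r5a locus (chr1:193218950-193336623), with a regulatory subunit of protein phosphatase 2A, had 10, 20, 22 and 24. Serpinf2, the plasma inhibitor of plasmin, lies with Prpf8, Tlcd2 and Wdr81 at chr11:75234786-75352035, with 13, 23, 24 and 19 peaks. Gdf15, a stress-induced cytokine, and Jund, an AP-1 subunit, lie with Pgpep1 and Lrrc25 at chr8:73107721-73224249, with 17, 26, 23 and 30 peaks. Atn1, Emg1, Phb2 and Ptpn6 share chr6:124612342-124737336, with 11, 23, 17 and 22 peaks. Slc16a5, Atp5h, Ict1 and Kctd2 share chr11:115228482-115337687, with 12, 17, 17 and 18 peaks. Apart from the lower control male counts, no list was highest throughout these loci.

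**Figure D2:**
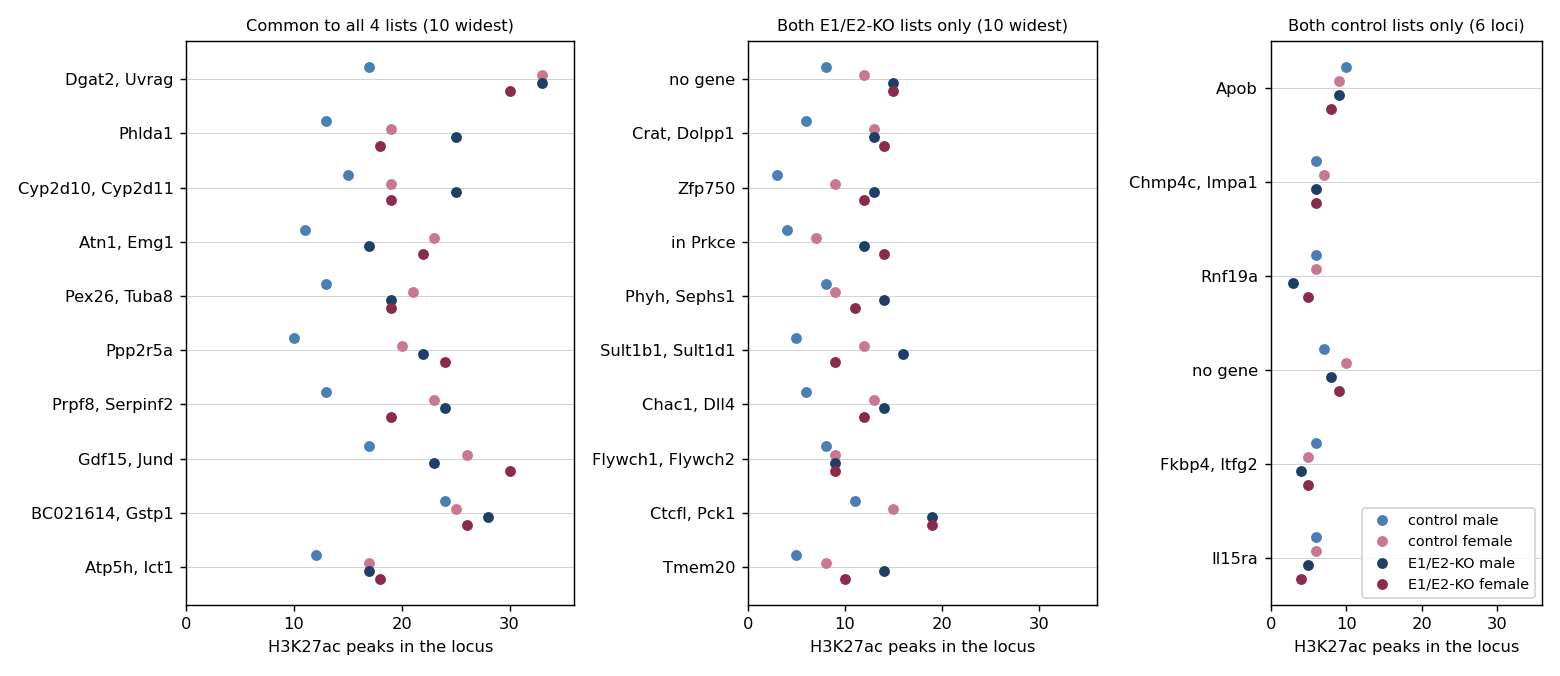
H3K27ac peaks of each list (points) in the 10 widest loci common to all 4 lists, the 10 widest loci of both E1/E2-KO lists only and 6 loci of both control lists only. Common loci held 10 to 33 peaks per list, and the loci of 1 genotype held peaks in the other genotype too.

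The E1/E2-KO-only loci were regions where control liver also had peaks, but fewer or more scattered ones. Over the 137 loci the median number of peaks was 4 for control male, 6 for control female, 8 for E1/E2-KO male and 7 for E1/E2-KO female liver. The rule that chose these loci favours higher counts in the E1/E2-KO lists. Control female liver had 5 or more peaks in 98 of them and control male in 44. The control female list had a peak in each of the 137 loci, and the control male list had none in 4. The largest stitched group of the control female list in these loci had a median of 4 peaks and a span of 16.9 kb, and in 61 loci it had the 5 peaks the rule asks for. Of the 137 loci 50 (36.5%) held no protein-coding start.

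The widest of them, chr13:37543992-37635477, contains no protein-coding gene and held 8 peaks in control male, 12 in control female and 15 in each E1/E2-KO list. The locus of Pck1, the rate-limiting enzyme of gluconeogenesis, at chr2:172932479-172996625 had 11, 15, 19 and 19 peaks, and Ctcfl starts in the same locus. No group of these control peaks met the rule, and the Pck1 start itself lay inside the cluster of E1/E2-KO female only. A sulfotransferase locus with Sult1b1, Sult1d1 and Sult1e1, the last of which inactivates estrogens, at chr5:87961641-88030716 had 5, 12, 16 and 9 peaks, so control female exceeded E1/E2-KO female in number. How well reads separate these related genes was not tested. Phyh, which starts the breakdown of phytanic acid in peroxisomes, and Sephs1 lie at chr2:4794707-4865640, with 8, 9, 14 and 11 peaks.

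Crat, the carnitine acetyltransferase, lies with Dolpp1, Fam73b and Ppp2r4 at chr2:30214199-30298018, with 6, 13, 13 and 14 peaks. Zfp750 at chr11:121337250-121418141 had 3, 9, 13 and 12, and a stretch within Prkce at chr17:86685608-86765077 had 4, 7, 12 and 14. Dll4, a Notch ligand of endothelial cells, shares chr2:119113977-119181978 with Chac1 and Vps18, and the counts were 6, 13, 14 and 12. Flywch1, Flywch2, Kremen2 and Srrm2 at chr17:23876347-23941237 had 8, 9, 9 and 9, so that control female had as many peaks as both E1/E2-KO lists. Tmem20 at chr19:38430411-38494218 had 5, 8, 14 and 10.

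The 7 control-only loci were small departures of the same kind. Apob, the structural protein of very low density lipoprotein, reaches into the widest of them, chr12:7916278-7985255, with 10, 9, 9 and 8 peaks, but only its first bases do so, and its start was in a cluster of control male alone. Others hold Impa1, Slc10a5, Zfand1 and Chmp4c (chr3:10318588-10367344, with 6, 7, 6 and 6 peaks), Rnf19a (chr15:36199699-36234422, with 6, 6, 3 and 5), no protein-coding gene (chr10:127373120-127407814, with 7, 10, 8 and 9), Itfg2 and Fkbp4 (chr6:128368030-128396141, with 6, 5, 4 and 5) and Il15ra (chr2:11614660-11640152, with 6, 6, 5 and 4). Rnf19a had the lowest of the counts given, in E1/E2-KO male. No locus lost its peaks in E1/E2-KO liver, where at least 3 remained in each.

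**Figure D3:**
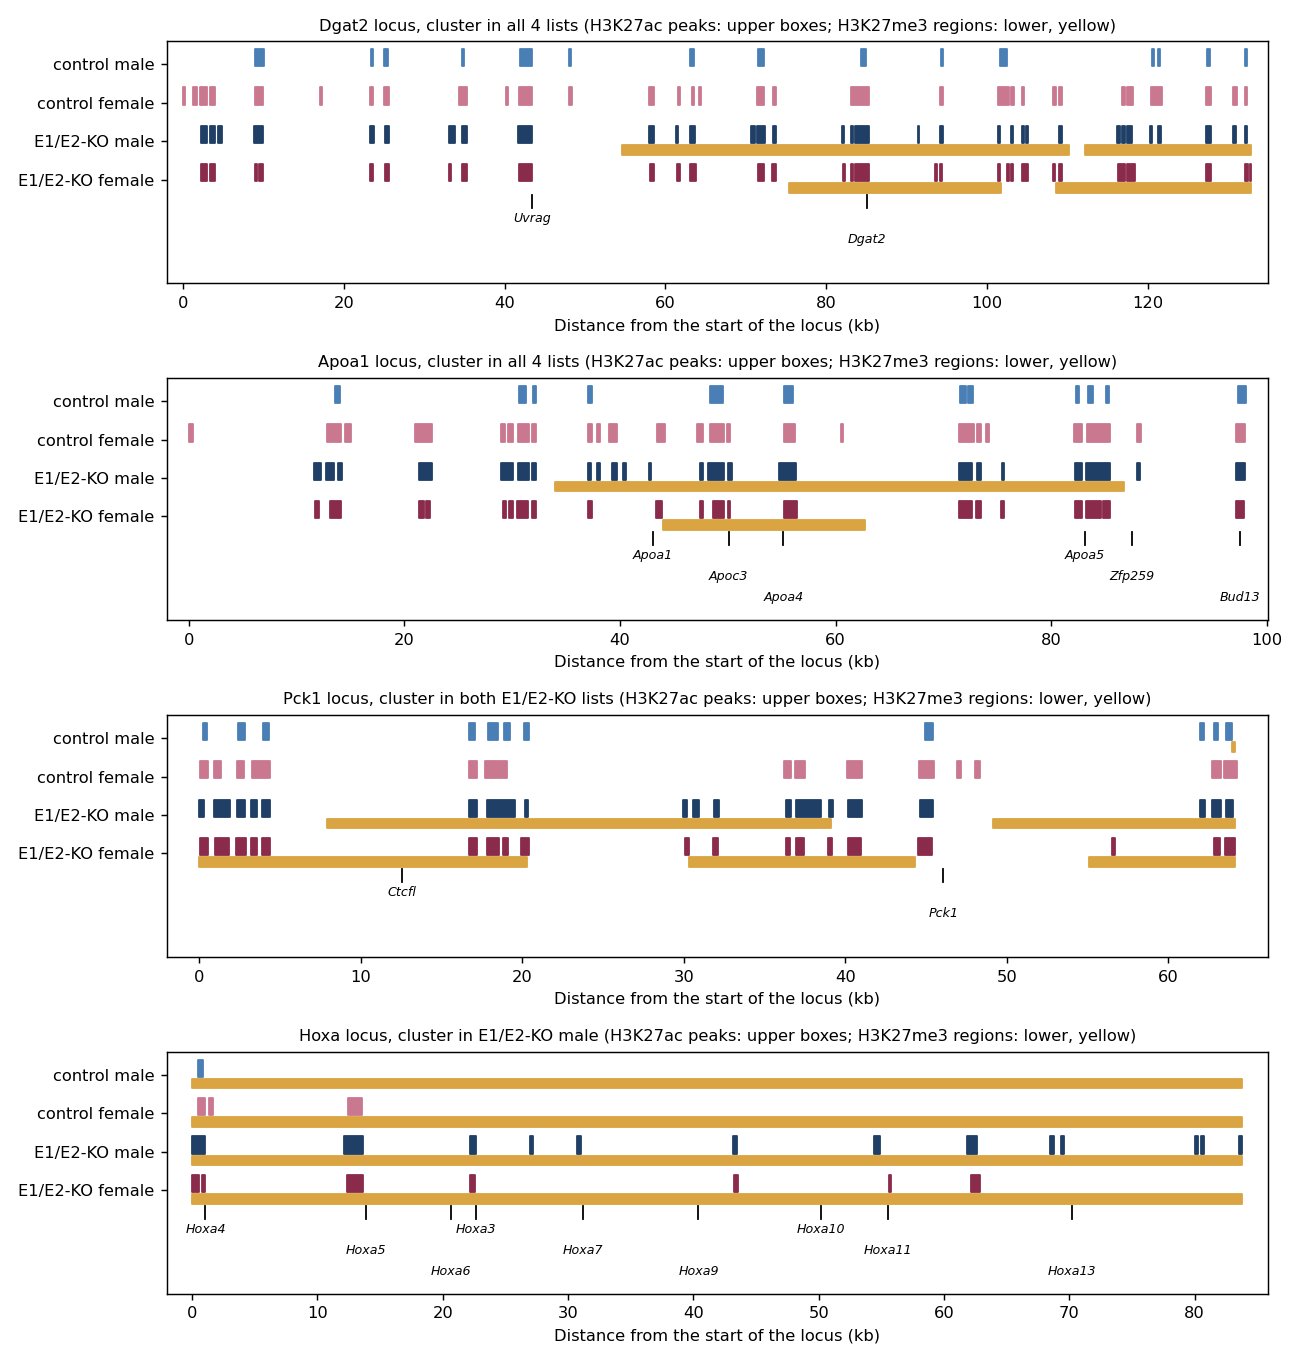
Maps of the Dgat2, Apoa1, Pck1 and Hoxa loci, with H3K27ac peaks of the 4 lists as upper boxes, H3K27me3 regions as lower yellow boxes and transcription starts as ticks, on a horizontal axis in kb from the start of the locus. H3K27me3 regions lay over the Dgat2 and Apoa1 loci in both E1/E2-KO lists and in no control list, and over the whole Hoxa locus in all lists.

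Genes with a start inside a cluster numbered 586 of 21418 autosomal protein-coding genes for control male liver (2.74%), 1768 for control female (8.25%), 1888 for E1/E2-KO male (8.82%) and 1558 for E1/E2-KO female (7.27%). In all, 2671 genes started in a cluster of at least 1 list and 435 (2.03%) in clusters of all 4. Hepatocyte genes exceeded these shares. Of 274 genes in 7 lists of hepatocyte function, 33 started in a cluster for control male (12%), 94 for control female (34.3%), 94 for E1/E2-KO male (34.3%) and 77 for E1/E2-KO female (28.1%), and 119 did so in any list. Of 92 markers of endothelial cells, Kupffer cells and leukocytes, stellate cells and cholangiocytes, 3 started in a cluster of any list (3.26%). Hepatocyte genes were thus in clusters more often than genes at large in each list, and the markers of other liver cells less often than genes at large over the lists together.

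**Figure D4:**
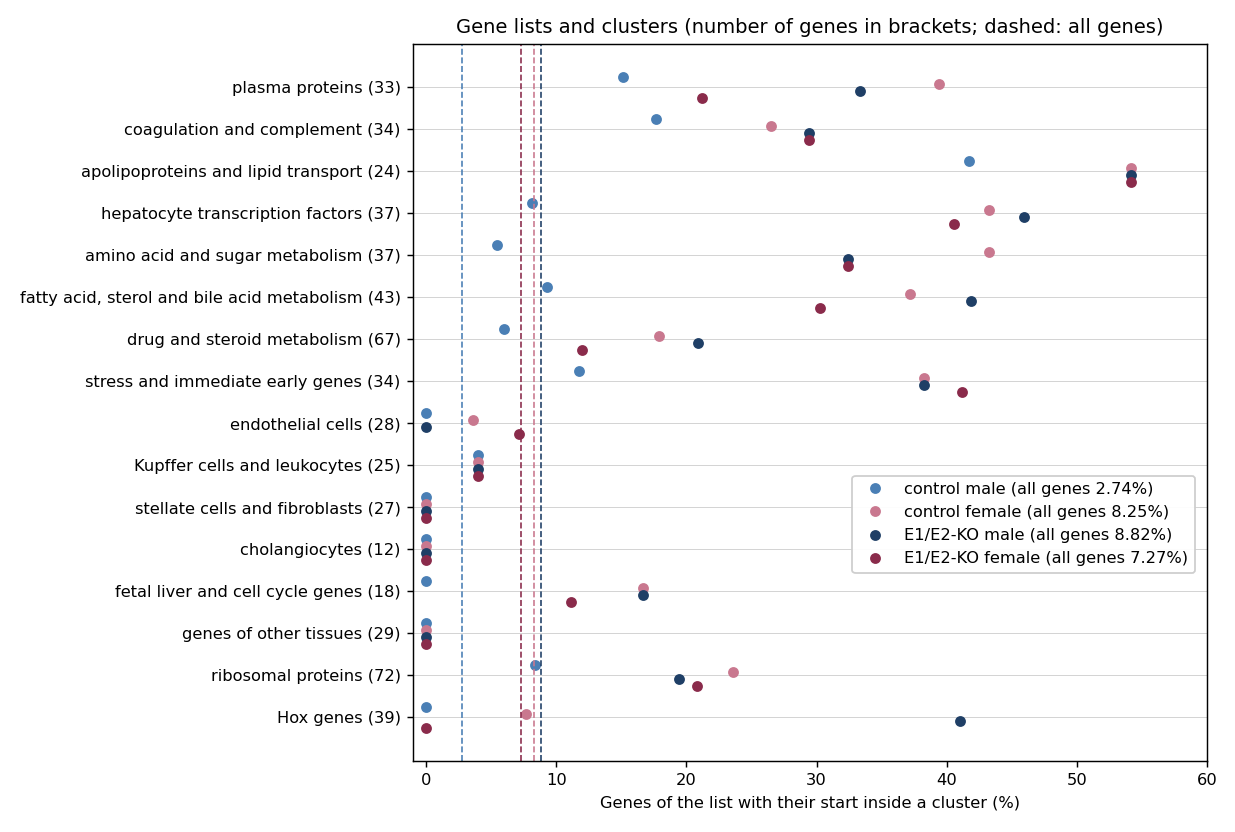
Percent of the genes of each list whose start lay inside a cluster, in each H3K27ac list (points), with the share of all autosomal protein-coding genes as dashed lines. Lists of hepatocyte function lay above the dashed line of the same group throughout, and the Hox genes did so in E1/E2-KO male liver alone (41.0%).

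Apolipoproteins and lipid transport genes were in clusters most often, with 10 of 24 genes in control male and 13 in each other list. Apoa1, Apoa4, Apoa5 and Apoc3, the apolipoproteins of high density and triglyceride-rich particles, share a common locus at chr9:45993621-46091687 with 12, 25, 23 and 21 peaks. Apoe, the ligand for remnant uptake, and Apoc1, Apoc2 and Apoc4 share chr7:20249635-20300639 with 6, 13, 14 and 19 peaks. Both loci were common to all 4 lists and had the fewest peaks in control male, although the starts of Apoe and Apoc1 lay beside the control male cluster and not in it. Lrp1, a remnant receptor, started in a cluster of each list as well.

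Of 33 plasma protein genes 5, 13, 11 and 7 started in clusters, in the order of lists used above. Itih1 and Itih3, heavy chains of a hyaluronan-binding serum complex, and the related Itih4 were in clusters of all 4, and so were Saa1 and Saa4. Saa1 and Saa4 encode serum amyloid A proteins, and Saa1 has a close copy in Saa2. The Alb locus, chr5:90834472-90922095, which also holds the fetal Afp, had 12, 19, 18 and 17 peaks and a cluster in all lists but control male. Of 34 coagulation and complement genes 6, 9, 10 and 10 were in clusters. The fibrinogen genes Fga, Fgb and Fgg at chr3:82803854-82859888 had 7, 14, 16 and 13 peaks in a common locus, with the Fgg start outside the E1/E2-KO female cluster, whereas C3 was in a cluster in control female only, with 3, 7, 3 and 3 peaks in its locus.

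Of 37 hepatocyte transcription factor genes 3 were in clusters for control male, 16 for control female, 17 for E1/E2-KO male and 15 for E1/E2-KO female liver. Nr1h4, the bile acid receptor FXR, and Xbp1, of the unfolded protein response, were in clusters of all 4 lists. A further 10, among them Foxa2, Foxa3, Cebpa, Prox1, Stat5a and Stat5b, were in clusters of all lists but control male. At Foxa2 the locus held 5, 8, 9 and 9 peaks, at Cebpa 5, 10, 9 and 12, and at Prox1 2, 10, 8 and 10. A cluster in all lists but control male was also the most frequent pattern over all loci (399 of 1940), and the control male list was the shortest.

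Metabolic genes were counted in the same way. Of 37 amino acid and sugar genes 2, 16, 12 and 12 were in clusters, with Cps1, the entry enzyme of the urea cycle, and Ahcy in all 4, and G6pc, Tat, Gnmt, Slc2a2, Irs2 and Tdo2 among those in all but control male. The Tat locus held a control male cluster too, with the Tat start outside it. Of 67 drug and steroid genes 4, 12, 14 and 8 were in clusters, and in all lists but control male this was the smallest share among the hepatocyte gene lists. Cyp17a1, a steroid hydroxylase, lies at chr19:46716576-46803992 with 7, 20, 22 and 21 peaks.

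Of the 274 hepatocyte genes 6 started in a cluster of both E1/E2-KO lists and of no control list, a pattern of 0.733% of all genes, and 3 of the 6 were genes of lipid metabolism. As hepatocyte genes were in clusters more often in every list, with 119 in any, nothing is read from the count of 6. Of 43 genes of fatty acid, sterol and bile acid metabolism, 4, 16, 18 and 13 were in clusters, and 3 had this pattern: Fasn, the fatty acid synthase, Fads2, a fatty acid desaturase, and Plin2, a coat protein of lipid droplets. Ppara, the receptor that switches on fatty acid oxidation, had it among the transcription factors, and the others were Apom, an apolipoprotein of high density lipoprotein, and Sult1d1. The Fasn locus (chr11:120684154-120714328) held 6, 6, 8 and 9 peaks, the Plin2 locus (chr4:86303281-86340986) 5, 9, 10 and 8, and the Ppara locus (chr15:85550240-85585664) 2, 6, 12 and 8. At Fasn and Ppara both E1/E2-KO lists exceeded both control lists, and at Plin2 control female exceeded E1/E2-KO female. These loci were defined by the E1/E2-KO clusters, so the rule favours higher counts in the E1/E2-KO lists. Cyp27a1 was in a cluster of E1/E2-KO male alone, and Abcg5, Abcg8 and Slc27a2 in clusters of control female alone, so single-list patterns ran both ways. The Acaca start also lay in the E1/E2-KO male cluster only, but its locus, chr11:83942518-84012441, held clusters in all lists but control male, with 7, 12, 12 and 12 peaks.

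Immediate early and stress genes were in clusters at 4, 13, 13 and 14 of 34, with Junb, Jund, Fosb and Ier2 in all 4 lists. Fos, an AP-1 subunit, had a cluster in both E1/E2-KO lists only, at chr12:86793044-86838803 with 3, 6, 6 and 8 peaks. Ribosomal protein genes, most of them active in every cell, were in clusters at 6, 17, 14 and 15 of 72. These shares were 8.33%, 23.6%, 19.4% and 20.8%, where all genes had 2.74%, 8.25%, 8.82% and 7.27%. An H3K27ac peak within 1 kb of the start was present at 84.7% to 86.1% of them in each list. A start peak without a cluster was thus their usual state, although they too were in clusters more often than genes at large in each list. Over all genes, such a start peak was present at 45.6% for control male, 51.6% for control female, 52.6% for E1/E2-KO male and 52.2% for E1/E2-KO female liver.

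Genes of other cells were nearly absent from clusters. None of 27 stellate cell and fibroblast genes, 12 cholangiocyte genes and 29 genes of other tissues started in a cluster of any list. Of 28 endothelial genes Tie1 did so for control female and E1/E2-KO female and Dnase1l3 for E1/E2-KO female, which gave 0, 1, 0 and 2 genes. Of 25 Kupffer cell and leukocyte genes Cd68 did so in each list, in a locus that also holds Eif4a1 and Senp3. Among 18 fetal liver and cell cycle genes Mki67 and Ccnd1 were in clusters of all lists but control male, Afp of control female and Igf2bp3 of E1/E2-KO male alone. The Igf2bp3 locus, chr6:49136670-49165998, held 0, 1, 6 and 5 peaks, and was likewise defined by the E1/E2-KO male cluster.

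Genes of the study's own sex-biased lists and of its liver fibrosis list were also counted, and as these were chosen by the study they are not independent evidence. Of 445 male-biased genes 40, 93, 103 and 84 started in clusters (8.99%, 20.9%, 23.1% and 18.9%), and of 583 female-biased genes 21, 83, 96 and 85 (3.60%, 14.2%, 16.5% and 14.6%). Male-biased genes were in clusters more often than female-biased ones in each list. In control male liver the female-biased share (3.60%) was near the 2.74% of all genes. No difference between the shares in this paragraph was tested. Of 207 fibrosis genes 8, 27, 32 and 26 were in clusters (3.86%, 13%, 15.5% and 12.6%), where all genes had 2.74%, 8.25%, 8.82% and 7.27%. In both E1/E2-KO lists and no control list were 10 of the 445 male-biased, 10 of the 583 female-biased and 3 of the 207 fibrosis genes, a pattern of 0.733% of all genes.

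Hox genes, the positional homeobox genes that Polycomb holds silent in adult liver, were in clusters most often in E1/E2-KO male liver. Of 39 genes 0 started in a cluster for control male, 3 for control female, 16 for E1/E2-KO male (41.0%, Wilson 95% interval 27.1% to 56.6%) and 0 for E1/E2-KO female liver. Of these genes 13 were in clusters of E1/E2-KO male only, a pattern of 1.99% of all genes. An H3K27ac peak within 1 kb of the start was present at 1, 3, 13 and 10 of the 39. By start peaks both E1/E2-KO lists thus exceeded both control lists. The Hoxa locus, chr6:52140684-52224493, spans 83.8 kb with 10 starts and held 1 peak for control male, 3 for control female, 13 for E1/E2-KO male and 7 for E1/E2-KO female liver. The Hoxc locus, chr15:102796574-102831345, with Hoxc6, Hoxc8, Hoxc9 and Hoxc10, held 0, 1, 6 and 4 peaks. Both loci were defined by the E1/E2-KO male cluster, so its highest count follows from the rule.

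Hoxb4, Hoxb5 and Hoxb6 at chr11:96147490-96180555 were in clusters of control female and E1/E2-KO male, with 2, 6, 5 and 6 peaks. H3K27me3 regions covered 100% of the Hoxa, Hoxb and Hoxc loci in all 4 lists. Acetylation peaks were thus listed inside regions still called for H3K27me3 in E1/E2-KO liver, and which cells carry either mark was not tested. With the 28862 widest peaks of each list no Hox gene was in a cluster in any group, and none was after peaks within 2.5 kb of a transcription start were left out. With peaks joined across 20 kb, 7 Hox genes were in clusters for E1/E2-KO female and 16 for E1/E2-KO male liver.

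Nearly every cluster touched an H3K4me1 peak of the same group, from 97.5% of the E1/E2-KO female to 100% of the control male clusters, a share close to its ceiling. Single peaks inside clusters were less often paired with H3K4me1 than peaks elsewhere. The share was 57.6% inside (Wilson 95% interval 55.5% to 59.7%) and 64.8% outside (64.2% to 65.4%) in control male liver, with 64.3% over all peaks. It was 41.8% and 51.9% for control female (49.8% over all), 49.7% and 57.9% for E1/E2-KO male (56.1%), and 34.0% and 42.4% for E1/E2-KO female liver (40.9%). The difference had the same direction in all 4 lists.

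H3K27me3 set control and E1/E2-KO clusters apart. In the clusters of control male liver 6.75% of the bases lay in H3K27me3 regions of that group, for control female 9.30%, for E1/E2-KO male 31.1% and for E1/E2-KO female 17.4%. The share of clusters that touched a region was 20.6% (Wilson 95% interval 16.5% to 25.4%) for control male, 28.4% (25.9% to 31.0%) for control female, 55.0% (52.4% to 57.6%) for E1/E2-KO male and 35.9% (33.0% to 38.7%) for E1/E2-KO female liver. Over the autosomes the regions covered 31.0%, 25.5%, 30.3% and 25.6%, so their total extent was alike in control and E1/E2-KO liver of the same sex. Extent is not the level of the mark, which was not tested. The paper reports lower H3K27me3 at most of the sites that differed in E1/E2-KO liver. It adds that its sequencing may understate the loss at some of them. In control liver the clusters thus lay far below the autosomal share, and in E1/E2-KO male liver they reached it.

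The same held within 1 fixed set of loci. In the 231 common loci, H3K27me3 regions covered 8.44% of the bases for control male and 30.1% for E1/E2-KO male, and 8.28% for control female and 17.4% for E1/E2-KO female liver. In males 79 of these loci (34.2%, Wilson 95% interval 28.4% to 40.5%) had a coverage at least 25 percentage points higher in E1/E2-KO than in control and 4 had one as much lower, where 9.79% of all 50 kb windows of the autosomes were higher and 11.1% lower. In females 41 (17.7%, 13.4% to 23.2%) were higher and 4 lower, where 9.43% of the windows were higher and 9.30% lower. Common loci without a region in control, 161 in males and 150 in females, could not be lower, which limits the lower counts. Of 161 common loci without any region for control male, 77 had one for E1/E2-KO male, and of 150 without one for control female, 41 had one for E1/E2-KO female. Of all 50 kb windows without a region in control, 3484 of 24775 had one in males and 3449 of 27507 in females with E1/E2-KO, and of the windows outside loci that held a peak in each list 1075 of 4120 and 599 of 4360.

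Outside the clusters, acetylated windows of 50 kb differed less in males and the other way in females. For single H3K27ac peaks outside clusters, the share in H3K27me3 was slightly higher in E1/E2-KO female than in control female liver. Of the 9456 windows of 50 kb that held a peak in each list and touched no locus, 14.7% were higher and 9.61% lower for E1/E2-KO male than for control male, and 7.40% were higher and 11.7% lower for E1/E2-KO female than for control female liver. Per peak, 6.44% of the H3K27ac peaks inside clusters overlapped an H3K27me3 region in control male, against 16.5% outside and 15.7% of all. In E1/E2-KO male liver 31.4% did so inside and 34.8% outside (34.1% of all). In control female the shares were 8.27% and 20.4% (17.8% of all), and in E1/E2-KO female 17.4% and 21.9% (21.1% of all). The distance between peaks inside and outside clusters was thus large in control and small in E1/E2-KO liver.

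**Figure D5:**
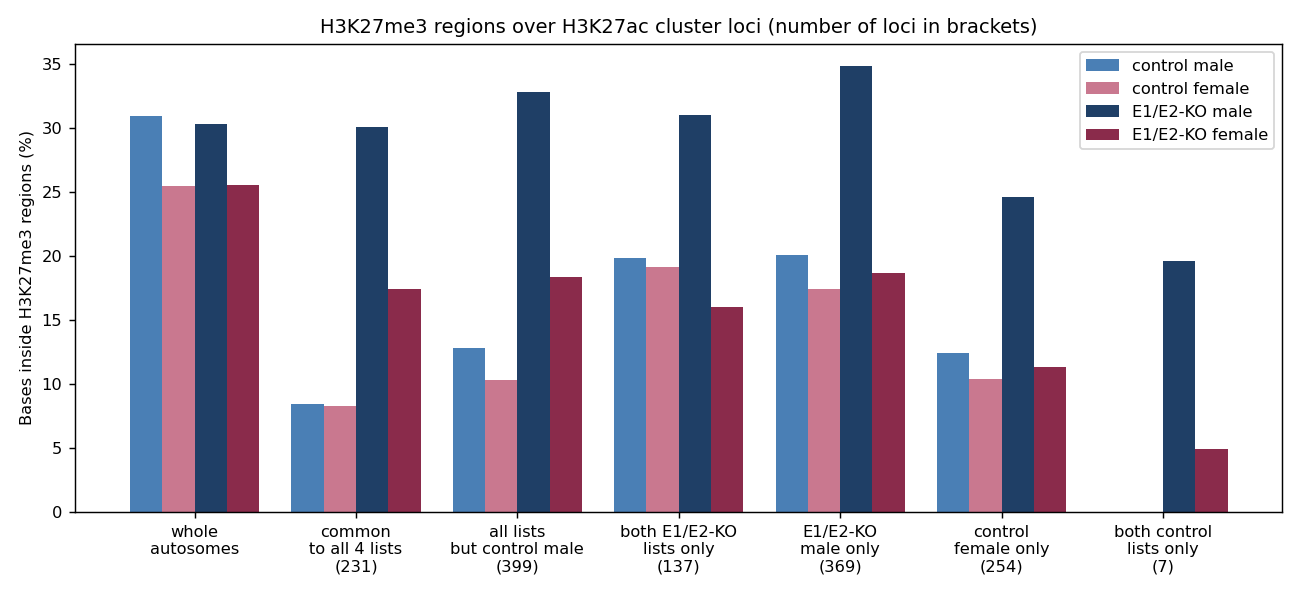
Percent of bases inside H3K27me3 regions of each group (bars) for the whole autosomes and for 6 kinds of loci, with the number of loci in brackets. In the 231 common loci the share was 8.44% for control male and 30.1% for E1/E2-KO male liver, while the autosomal shares of these groups were 31.0% and 30.3%.

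Several loci of hepatocyte genes had no H3K27me3 region in control and some coverage in both E1/E2-KO lists. At the Dgat2 locus H3K27me3 regions covered 0% in both control lists, 57.4% for E1/E2-KO male and 38.2% for E1/E2-KO female liver. At Apoa1 the values were 0%, 0%, 53.8% and 19.2%, at the fibrinogen genes 0%, 0%, 93.1% and 40.2%, and at Cebpa 0%, 0%, 91.8% and 48.8%. Among common loci of genes outside the hepatocyte lists, Ppp2r5a had 0%, 0%, 93.0% and 73.4%. Phlda1 had 0%, 0%, 77.0% and 4.85%, with the higher coverage mainly in males. The Cyp2d and Apoe loci had no region in any list, and at Nr1h4 and Xbp1 there was none either. Higher coverage thus concerned some of these loci and not others.

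Of the 119 hepatocyte genes with a start in a cluster, 50% or more of the gene span lay in H3K27me3 regions at 3 genes in either control list, at 43 in E1/E2-KO male and at 22 in E1/E2-KO female. Of the 155 hepatocyte genes outside clusters the numbers were 12, 8, 41 and 25. Higher numbers in E1/E2-KO than in control liver were thus found for hepatocyte genes inside and outside clusters. Over all protein-coding genes the shares were 31.2%, 27.9%, 33.9% and 27.1%. Of the 92 markers of other liver cells 70, 67, 60 and 51 were covered in this way, so their number was lower where that of the hepatocyte genes was higher. As the deposited lists give the extent of regions and not their height, the level of H3K27me3 in these regions was not tested.

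In the 137 E1/E2-KO-only loci H3K27me3 covered 19.9% of the bases for control male, 19.2% for control female, 31.0% for E1/E2-KO male and 16.1% for E1/E2-KO female liver. These loci carried more H3K27me3 than the common loci in both control lists. Coverage of 50% or more was seen at 27 of them for control male, 26 for control female, 42 for E1/E2-KO male and 21 for E1/E2-KO female liver, where all 1940 loci had 246, 193, 563 and 260. For both E1/E2-KO lists the share was thus near that of all loci. At the Dll4 locus, 80.0% was covered in each control list, 64.7% for E1/E2-KO male and 48.8% for E1/E2-KO female liver. At Pck1 the values were 0.351%, 0%, 72.1% and 67.6%. Lower and higher coverage thus both occurred where the E1/E2-KO lists alone had a cluster. The 7 control-only loci had no region in either control list, and 19.6% and 4.95% of their bases were covered in E1/E2-KO male and female liver.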

How the data were processed

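The authors measured H3K27ac, H3K4me1 and H3K27me3 by ChIP-seq in livers of control and E1/E2-KO mice of both sexes. For each group and mark they joined the reads of all livers, aligned these to mm9 with Bowtie2 (2.3.2), and called H3K27ac and H3K4me1 peaks by MACS2 (2.1.1) with its defaults and H3K27me3 regions by SICER (1.1). Versions are from the submitters' processing notes. The deposited lists hold chromosome, start, end and name only, so no depth is given, and how reads were assigned between near-identical gene copies is not given in the sources used here.

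Positions were counted from 1, and 1 base was added to SICER ends. Stitching (neighbouring peaks 12.5 kb or less apart), loci (overlap of at least 1 bp between clusters of different lists), coverage and Wilson intervals were computed in Python 3.11.15 with numpy 2.4.6 and tested on simulated peaks. Starts and introns came from GENCODE M1 on NCBIM37 (mm9), and sequence was read with samtools 1.23.1. With 1 pooled list per group no test or SD was possible. Named genes are those starting in the 10 widest loci of each pattern (common, E1/E2-KO-only, control-only), up to 4 a locus, and members of the gene lists in clusters. Some genes that meet this rule are not reported here. The members and lists were chosen with earlier results of these data known. Alternatives changed the stitching distance, span, peak number, peak set and overlap. No columns of other series (0) were present.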

Additional observations from a re-analysis of the deposited data

Results flagged for a closer look

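In the E1/E2-KO-only loci the share of bases in H3K27me3 regions differed in direction between the sexes. It was 11.2 percentage points higher in E1/E2-KO male than in control male liver (31.0% and 19.9%), and -3.11 percentage points separated E1/E2-KO female from control female liver (16.1% and 19.2%). With 1 pooled list per group the difference between the sexes was not tested.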

How the results depend on the processing

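No paired analysis was possible because each group has 1 pooled list per mark, and for the same reason no liver could be left out in turn. Values below are in the order control male, control female, male E1/E2-KO, female E1/E2-KO where 4 are given. Stitching at 5 kb left 0, 3, 3 and 2 clusters, 22.1% of their bases under peaks and 4 gene starts. No locus was then common (0), E1/E2-KO-only (0) or control-only (0), so the H3K27me3 share of common loci had no value. The Hox genes in clusters were 0 for control female and 0 for E1/E2-KO male, hepatocyte genes 3 and markers of other liver cells 0. Stitching at 20 kb gave 1025, 2441, 2789 and 2407 clusters, 836 common, 228 E1/E2-KO-only and 15 control-only loci, 9.37% under peaks, 6261 starts, 7 Hox genes for E1/E2-KO female, 191 hepatocyte genes and 19 other markers. The H3K27me3 share of common loci was then 14.2% for control male and 13.3% for control female.

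A minimum span of 50 kb left 24, 209, 238 and 174 clusters, 17 common, 23 E1/E2-KO-only and 0 control-only loci, 821 starts, 0 Hox genes for control female and 9 for E1/E2-KO male, 46 hepatocyte genes, and 11.7% of common loci in H3K27me3 for E1/E2-KO female. At least 10 peaks left 22, 347, 416 and 310 clusters, 15 common, 41 E1/E2-KO-only and 1 control-only loci, 1100 starts, 0 Hox genes for control female and 9 for E1/E2-KO male, 78 hepatocyte genes, 1 other marker and a share of 4.23% for control male. The 28862 widest peaks gave 417, 372 and 322 clusters in the last 3 lists, 103 common, 23 E1/E2-KO-only and 25 control-only loci, 1143 starts, 0 Hox genes for control female and 0 for E1/E2-KO male, 67 hepatocyte genes and 1 other marker. Leaving out peaks near starts gave 57, 384, 479 and 359 clusters, 37 common, 51 E1/E2-KO-only and 1 control-only loci, 11.4% under peaks, 93 starts, 0 Hox genes for both these lists, 10 hepatocyte genes, 0 other markers and a share of 4.41% for control female. Merging peaks within 1 kb gave 194 control male clusters, 143 common and 4 control-only loci and 15.2% under peaks.

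Asking for an overlap of at least 50% gave H3K4me1 shares of peaks of 40.2%, 26.8%, 35.0% and 22.8%, clusters with an H3K27me3 region of 5.06%, 7.57%, 30.3% and 15.8%, and cluster bases in such regions of 3.68%, 4.89%, 24.4% and 11.6%. In alternatives chosen after seeing the data, leaving out control male gave 630 common loci, and the wider 50% of H3K27me3 regions covered 4.49%, 4.02%, 20.3% and 7.13% of common loci and 3.83%, 5.49%, 22.0% and 9.84% of cluster bases. With chromosome X there were 317, 1220, 1377 and 1092 clusters and 138 E1/E2-KO-only loci, and when clusters had to overlap by 50% of the shorter one there were 133 E1/E2-KO-only loci, with 231 common and 7 control-only loci under both. The H3K27me3 share of common loci was higher in E1/E2-KO than in control of the same sex under each setting that recomputed it, and so was the share of cluster bases under the only 2 settings that did, the 50% overlap and the wider regions. The cause of the other shifts was not tested, and peak lists without scores limit what can be said of signal strength.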
